A study of Mus musculus with 24 samples.

Results

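Pdcd1, Rell1, Chpf, Lamb3, Zmynd19 and Mypop are 6 genes, of the 18470 in the deposited count table, selected on the measured difference in their counts between 12 libraries labelled SCAP cKO and 12 labelled WT, over all sorted populations. All 6 had a row, and all 6 were among the 6779 genes that passed the filter on low counts. Pdcd1, Lamb3, Zmynd19 and Mypop had more than 3 counts in WT libraries only, so they could pass that filter only through the genotype in which they were higher. Because that genotype difference chose the genes, it is described below with no test. The tests reported here ask about sorted population, batch, and whether the difference varied with either.

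The libraries were bulk RNA-seq of memory B cells (csMBC in the labels) from mice that inhaled house dust mite extract by intranasal dosing and met the same allergen again 6 weeks later. The sorted populations were circulating cells and 2 from lung, CCR6+CD69+ and CCR6-CD69-, with 4 libraries for each population and genotype, and 2 of each 4 in either of 2 batches. WT mice carried SCAP +/+ hCD20-TamCre, and SCAP cKO mice carried SCAP fl/fl hCD20-TamCre, so all groups had the Cre, which is tamoxifen-inducible and driven by the human CD20 promoter of B lineage cells; by the series' design, SCAP was deleted before the recall. The labels give no ages, do not say whether WT mice received tamoxifen, name lung as the source of circulating libraries as well, and do not say that replicates were separate animals, so the spread behind each p-value may be technical.

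SCAP escorts the SREBP transcription factors from the endoplasmic reticulum to the Golgi, where they are cut and released to switch on sterol and fatty acid synthesis. None of the 6 genes is a textbook SREBP target. They belong to separate systems: Pdcd1 encodes the inhibitory receptor PD-1, which dampens antigen receptor signalling in lymphocytes; Rell1 encodes a membrane protein related to the TNF receptor family member RELT; Chpf encodes a partner of the enzymes that build chondroitin sulfate chains; Lamb3 encodes a laminin chain of epithelial basement membranes; Zmynd19 encodes a MYND zinc finger protein; and Mypop encodes a Myb-related transcription factor that binds profilin.

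Total counts ran from 129025 (SCAP cKO lung CCR6-CD69- replicate 4) to 8566243, and 3 counts were worth 0.350 to 23.3 CPM (counts scaled to a library total of 1e6); such floors cover counting error only. The B cell marker Ms4a1 had counts in every group, and the summed CPM of the 5 B cell markers with a row was 1838 to 5887. Scap itself had 113 ± 56.2 CPM in WT and 132 ± 112 CPM in SCAP cKO libraries (SD, n = 12), with a log2 fold change averaged over populations of 0.27 ± 0.55 (SE; edgeR adjusted p 0.991). Its counts cover the whole gene and were not lower under the SCAP cKO label, so the genotypes are given as labelled.

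The promoters of 3 of the genes are shown to set Rell1, which was higher in SCAP cKO libraries, beside Pdcd1 and Mypop, which had 2 and 0 counts there. Each is the RefSeq window on GRCm38.p6 from 250 bases before to 50 after the gene's start, read on the gene's strand, 5′ to 3′. Capitals mark the GC box GGGCGG or its complement CCGCCC. Pdcd1 lies at chr1:94052504-94052803 (minus strand), Rell1 at chr5:63968848-63969147 (minus strand) and Mypop at chr7:18990995-18991294 (plus strand).
Pdcd1: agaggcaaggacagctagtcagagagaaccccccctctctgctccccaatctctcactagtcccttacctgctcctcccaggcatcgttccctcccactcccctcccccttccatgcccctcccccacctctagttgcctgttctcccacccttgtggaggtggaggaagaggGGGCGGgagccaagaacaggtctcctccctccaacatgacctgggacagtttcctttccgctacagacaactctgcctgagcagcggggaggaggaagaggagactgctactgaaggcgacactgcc
Rell1: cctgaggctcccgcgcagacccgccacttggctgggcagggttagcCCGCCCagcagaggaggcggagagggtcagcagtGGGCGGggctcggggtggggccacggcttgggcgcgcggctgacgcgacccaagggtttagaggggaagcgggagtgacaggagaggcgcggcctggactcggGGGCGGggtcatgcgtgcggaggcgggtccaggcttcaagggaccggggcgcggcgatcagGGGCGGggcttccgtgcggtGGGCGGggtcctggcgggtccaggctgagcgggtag
Mypop: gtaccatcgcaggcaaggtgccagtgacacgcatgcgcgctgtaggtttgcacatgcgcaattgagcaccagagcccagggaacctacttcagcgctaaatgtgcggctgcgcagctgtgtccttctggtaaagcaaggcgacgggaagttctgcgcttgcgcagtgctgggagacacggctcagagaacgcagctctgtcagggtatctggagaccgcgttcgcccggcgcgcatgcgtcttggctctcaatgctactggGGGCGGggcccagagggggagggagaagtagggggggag
All 6 genes matched RefSeq promoters, Lamb3 with 2 overlapping windows. GC boxes numbered 5 in Rell1, 2 each in Chpf and Zmynd19, 1 each in Pdcd1 and Mypop and 0 in either Lamb3 window, and 35.7% of all 32851 promoter windows of this length held at least 1. The classic sterol regulatory element (0.0913% of windows) and the looser form TCACNCCAC that it contains (1.24%) were in none of the windows of the 6 genes on either strand. Neither were the E-box CACGTG (7.15%) and the AP-1 motif TGACTCA (5.2%). The NFAT core GGAAAA (23.4%) was found once, in the second Lamb3 window. GC content was 74.7% in Rell1, 73.3% in Zmynd19, 71.7% in Chpf, 62.3% in Mypop, 60.7% in Pdcd1 and 59.3% in Lamb3, against a median of 52.7% over all windows. These matches describe the letters of the windows only.

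Pdcd1 was counted mainly in WT libraries. In WT lung CCR6+CD69+ replicates 1 to 4 it had 4.79, 0.370, 3.20 and 7.59 CPM, in WT lung CCR6-CD69- 0.296, 27.9, 26.0 and 4.19 CPM, and in WT circulating 0, 0, 2.03 and 62.8 CPM. Of the 12 SCAP cKO libraries, lung CCR6+CD69+ replicate 2 (0.239 CPM) and lung CCR6-CD69- replicate 1 (0.215 CPM) each had 1 count and the other 10 had 0. WT libraries were therefore uneven, and in the circulating population 2 of them were also at 0. In the lung populations the genotypes did not overlap in CPM, but the lowest WT values there are 2 counts (lung CCR6+CD69+ replicate 2) and 1 count (lung CCR6-CD69- replicate 1), under the floor of 3 counts, against 1 count in a SCAP cKO library each. Summed over libraries, 296 counts in WT stood against 2 in SCAP cKO. Averaged over populations, the fitted log2 difference, SCAP cKO minus WT, was -6.30 ± 1.41 (SE). All SCAP cKO circulating libraries were at 0, so the counts alone do not set the size of this average, and its SE is rough. The single library WT circulating replicate 4 held 145 of the 296 WT counts, and the difference was -5.00 without it. In batch 1 alone the fit gave -3.26, where WT libraries had a median of 0.333 CPM. The circulating libraries of that batch were at 0 under both labels, so this average is not a usable estimate.

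Lamb3 was the gene with the fewest WT libraries holding a count, 7 of 12. WT lung CCR6+CD69+ replicates had 0, 0.185, 0 and 11.9 CPM, WT lung CCR6-CD69- 22.5, 0, 5.07 and 7.12 CPM, and WT circulating 0, 157, 15.0 and 0 CPM. The SCAP cKO libraries had 1 count each in lung CCR6-CD69- replicate 2 (0.421 CPM) and circulating replicate 1 (0.548 CPM), and 0 in the other 10. High and low WT libraries stood side by side in every population, so the genotypes overlapped in all 3. Summed over libraries, 228 counts in WT stood against 2 in SCAP cKO, with 76, 56, 37 and 33 of the 228 in single libraries. The fitted log2 difference was -6.33 ± 1.46 (-4.55 without WT lung CCR6+CD69+ replicate 4). With all SCAP cKO lung CCR6+CD69+ libraries at 0, its size and SE are rough too. The highest value, 157 CPM, is 56 counts in WT circulating replicate 2, a library of 356782 counts.

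Mypop had no count in any SCAP cKO library. In WT lung CCR6+CD69+ replicates it had 7.94, 0.370, 0 and 20.2 CPM, in WT lung CCR6-CD69- 0, 20.6, 1.90 and 0.419 CPM, and in WT circulating 0.884, 0, 37.7 and 0 CPM. Only 4 of the 8 WT libraries with a count had more than 3, and each population had at least 1 WT library at 0, so none was free of overlap. With 239 WT counts and a floor of 3 counts over the SCAP cKO group (0.112 CPM), the pooled WT level was at least 60.0-fold higher. WT circulating replicate 3 alone gave 93 of those 239 counts, and without it the bound was 39.4-fold. Among all tested genes, 3 (0.0443%) were at 0 in all 12 SCAP cKO libraries and 0 were at 0 in all 12 WT libraries. At most 3 counts in each SCAP cKO library, as Pdcd1, Lamb3, Zmynd19 and Mypop had, was found for 29 genes (0.428%), and for 0 genes in WT.

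Zmynd19 had counts in 11 of 12 WT libraries, over 3 counts in 10 of them. It had 11.7, 8.13, 43.9 and 21.0 CPM in WT lung CCR6+CD69+, 0, 23.5, 30.4 and 12.1 CPM in WT lung CCR6-CD69-, and 0.884, 216, 24.7 and 7.36 CPM in WT circulating libraries. SCAP cKO lung CCR6+CD69+ replicates 1 and 2 had 0.657 and 0.717 CPM, lung CCR6-CD69- replicates 1 and 2 had 0.646 and 0.421 CPM, circulating replicate 2 had 2.09 CPM, and the other 7 had 0. The lung CCR6+CD69+ groups did not overlap, while WT lung CCR6-CD69- replicate 1 (0 CPM) and WT circulating replicate 1 (0.884 CPM) fell among the SCAP cKO values. Totals were 603 against 11 counts, a pooled ratio of 41.3, and the fitted log2 difference was -6.14 ± 1.30 (-5.14 without WT circulating replicate 2, and -7.00 without SCAP cKO circulating replicate 2).

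Chpf had counts in all 12 WT and 8 SCAP cKO libraries, and its genotypes overlapped in 1 of the 3 populations. In lung CCR6+CD69+ libraries it had 18.4, 35.5, 4.66 and 26.4 CPM in WT and 3.28, 48.1, 7.69 and 43.7 CPM in SCAP cKO, and the genotypes overlapped. In lung CCR6-CD69- it had 105, 55.9, 114 and 116 CPM in WT and 3.66, 2.95, 0 and 0 CPM in SCAP cKO. In circulating libraries it had 195, 345, 83.5 and 71.0 CPM in WT and 5.48, 9.40, 0 and 0 CPM in SCAP cKO. Every WT library was thus above every SCAP cKO library in the latter populations. The SCAP cKO libraries at 0 for Chpf, all of batch 2, also had 31.8 to 69.3% of all tested genes at 0. The pooled WT to SCAP cKO ratio was 0.754 in lung CCR6+CD69+ (1.16 without SCAP cKO replicate 2). It was 37.5 in lung CCR6-CD69- (58.1 without SCAP cKO replicate 1) and 41.4 in circulating libraries (27.5 without SCAP cKO replicate 4 and 66.6 without SCAP cKO replicate 2). In the same order the fitted log2 differences were 0.49 ± 1.22, -6.15 ± 1.64 and -5.31 ± 1.50. The difference between populations in this genotype effect had an unadjusted p of 0.00281 and an adjusted p of 0.609 in edgeR, so it did not pass over all genes; DESeq2 gave an adjusted p of 0.0300. In edgeR 0 of 6779 genes (0.0%) passed this interaction test, with 426 at an unadjusted p under 0.05, and DESeq2 called 5. In simulated data the same test recovered 36% of genes changed 16-fold and 2% of genes changed 4-fold. Rell1 had an unadjusted p of 0.596 in this test. Mypop, with no SCAP cKO count, could not be tested for it, and Pdcd1, Lamb3 and Zmynd19, at 0 to 3 counts in every SCAP cKO library, hold too few counts there for the interaction to be read.

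**Figure D1:**
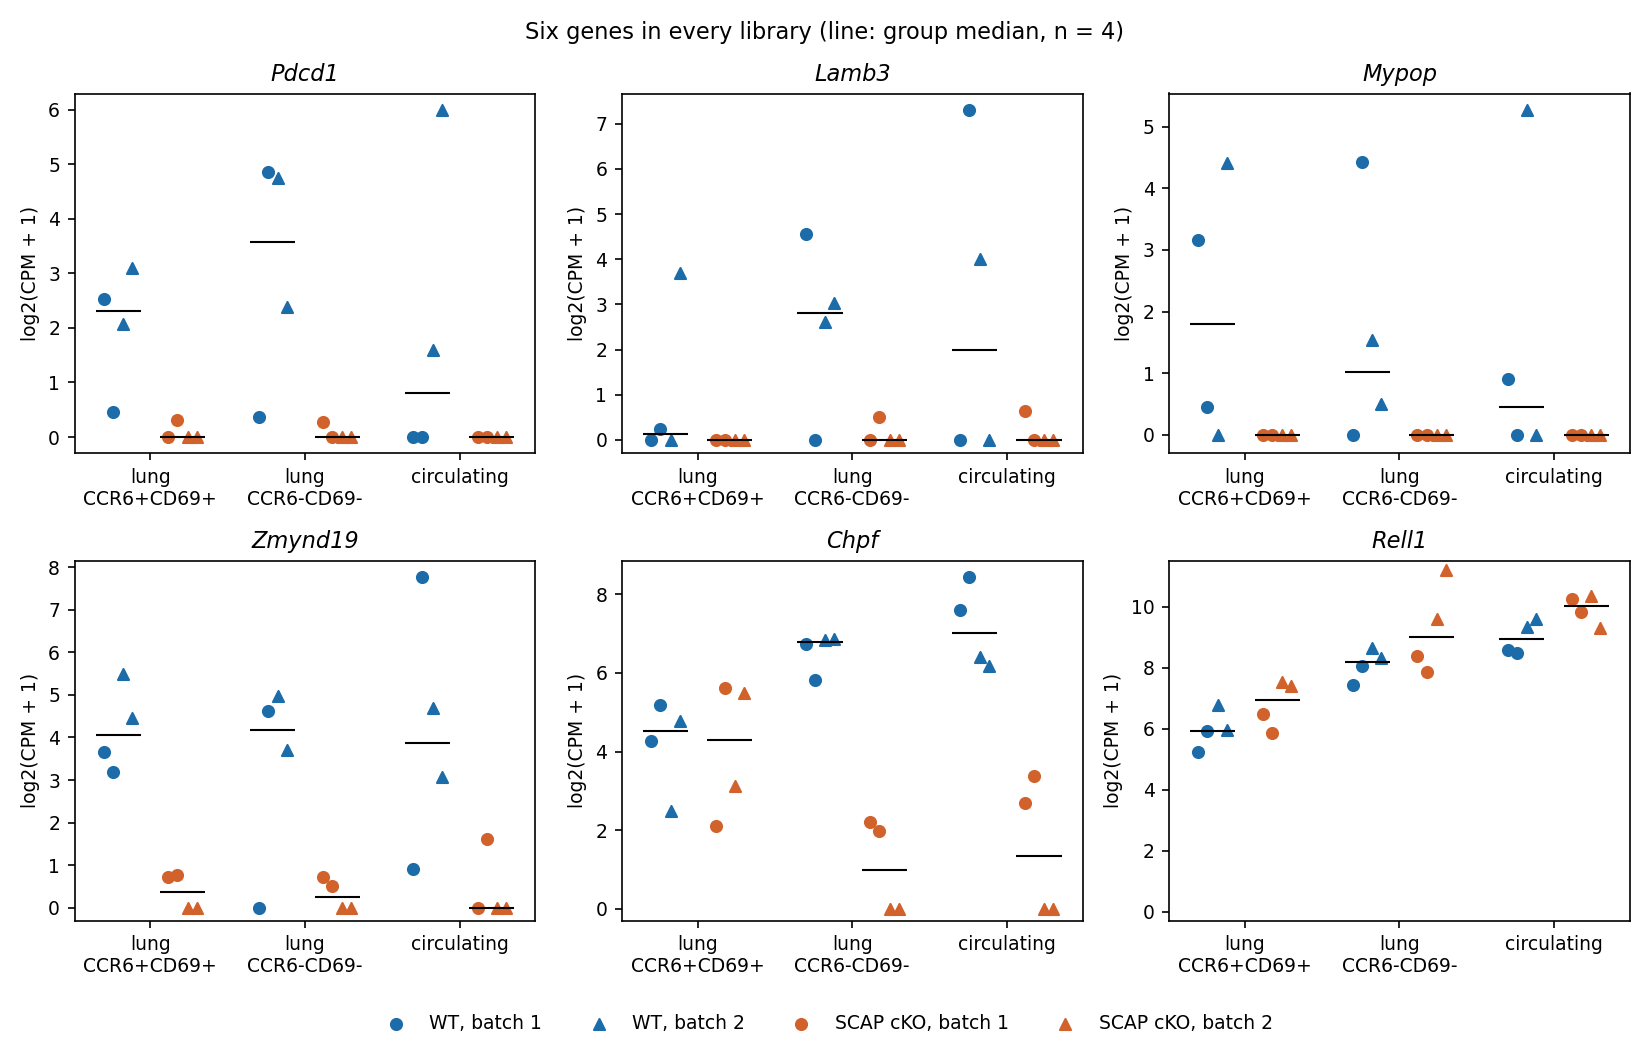
Level, as log2(CPM + 1) on the y axis, of Pdcd1, Rell1, Chpf, Lamb3, Zmynd19 and Mypop in each of 24 libraries, by sorted population (x axis) and genotype (colour), with batch as marker shape and the group median (n = 4, median of the plotted log2 values) as a line. Mypop is at 0 in all 12 SCAP cKO libraries, while Rell1 reaches 2379 CPM in SCAP cKO lung CCR6-CD69- replicate 4.

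Rell1 was the only one of the 6 that was higher in SCAP cKO, and it was counted in all 24 libraries. In lung CCR6+CD69+ libraries it had 36.3, 59.3, 109.7 and 61.5 CPM in WT and 89.0, 57.4, 183 and 168 CPM in SCAP cKO. In lung CCR6-CD69- it had 171, 268, 397 and 322 CPM in WT and 338, 231, 775 and 2379 CPM in SCAP cKO. In circulating libraries it had 381, 359, 649.9 and 783 CPM in WT and 1212, 903, 1300.1 and 629.8 CPM in SCAP cKO. The genotypes overlapped in every population, 4 SCAP cKO libraries were above the highest WT library, and 5 were below the WT median of 295 CPM. Pooled over libraries, SCAP cKO was 1.88 times WT (2.91 times in batch 1 and 1.50 times in batch 2), and the fitted log2 difference was 1.37 ± 0.31. The highest value rests on 307 counts in the smallest library, and without that library the difference was 1.03.

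Rell1 was also the only one of the 6 to pass the test between sorted populations. Over both genotypes, 346 of 6779 genes (5.1%) passed the test that the 3 populations were equal, and Rell1 was among them (edgeR, p 1.81e-10, adjusted p 6.13e-08). Its log2 difference, lung CCR6+CD69+ minus lung CCR6-CD69-, was -2.46 ± 0.39 (adjusted p 2.07e-05; 1.45% of genes passed), and lung CCR6+CD69+ minus circulating was -3.31 ± 0.41 (adjusted p 1.33e-08; 4.87% passed). Lung CCR6-CD69- and circulating libraries, neighbours in that order, differed by -0.85 ± 0.38, which did not pass (adjusted p 0.274; 1.56% passed). The order of the medians was the same under both labels: 60.4, 295 and 515 CPM in WT, and 128, 556 and 1058 CPM in SCAP cKO. Within WT alone the population test gave an adjusted p of 0.00163, where 1.17% of genes passed, and within SCAP cKO alone 1.39e-04, where 2.29% passed. The size of the Rell1 genotype difference was 0.94 ± 0.53 in lung CCR6+CD69+, 1.68 ± 0.55 in lung CCR6-CD69- and 1.49 ± 0.54 in circulating libraries.

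In simulated data this test called 29% of genes changed 4-fold and 82% of those changed 16-fold. For the other genes it did not pass, with adjusted p of 0.652 for Lamb3, 0.857 for Pdcd1, 0.872 for Chpf and 0.964 for Zmynd19 in edgeR. Mypop, at 0 in all SCAP cKO libraries, gave no usable population estimate over both genotypes (adjusted p 1). In WT libraries alone the log2 difference of Chpf, lung CCR6+CD69+ minus lung CCR6-CD69-, was -2.50 ± 1.29 (0.295% of genes passed) and minus circulating -2.75 ± 1.31 (1.18% passed). In SCAP cKO libraries alone the same differences were 4.15 ± 1.53 (0.457% passed) and 3.05 ± 1.42 (1.53% passed). The lowest adjusted p of Chpf among these 4 was 0.289 in edgeR, so none of the 4 passed; their opposite signs cancel in the test over both genotypes.

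**Figure D2:**
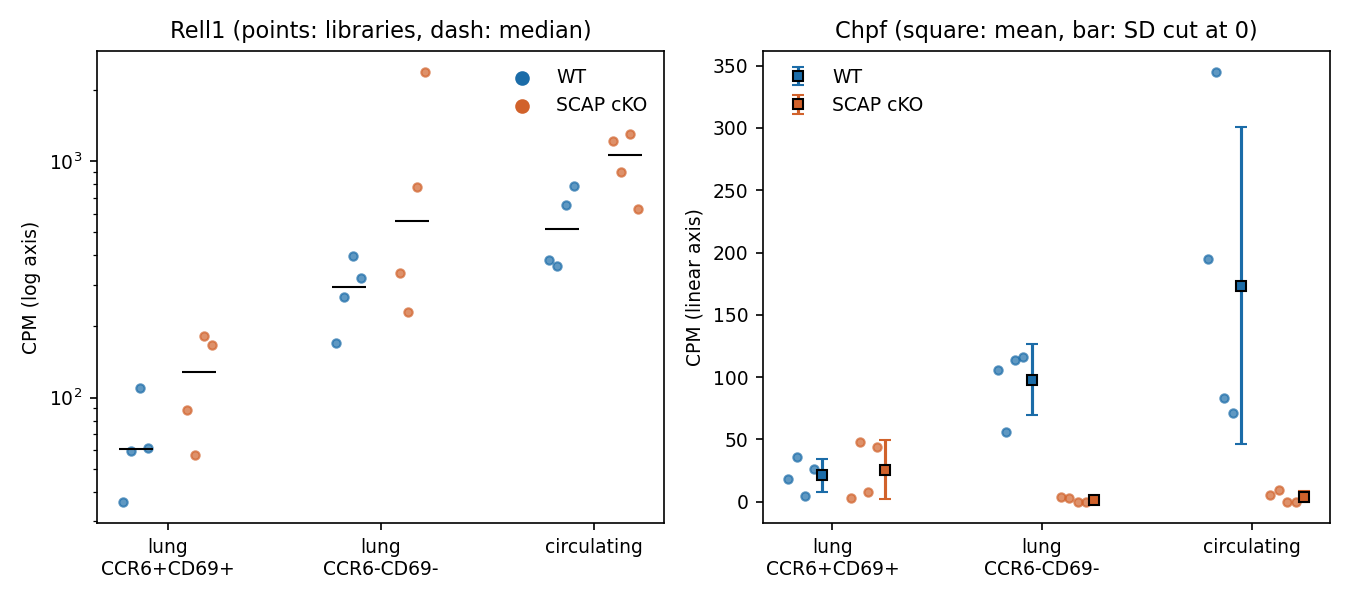
CPM of Rell1 (log axis, dash at the group median) and Chpf (linear axis, square at the mean and bar of 1 SD, cut at 0) in the 3 sorted populations of WT and SCAP cKO mice, 4 libraries each. Rell1 medians climb from lung CCR6+CD69+ to circulating libraries under both labels, and Chpf is near 0 in SCAP cKO lung CCR6-CD69- and circulating libraries but not in lung CCR6+CD69+.

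The share of all tested genes whose 4 WT and 4 SCAP cKO libraries did not overlap, with SCAP cKO lower, was 2.6% in lung CCR6+CD69+, 5.21% in lung CCR6-CD69- and 1.7% in circulating libraries; with SCAP cKO higher it was 0.974%, 0.148% and 0.708%. Rell1 did not reach this in any population. The 5 lower genes reached this 2, 2 and 1 times, Pdcd1 and Zmynd19 in lung CCR6+CD69+, Pdcd1 and Chpf in lung CCR6-CD69- (Pdcd1 by the 1 or 2 counts given above), and Chpf in circulating libraries. In the fit itself 8 genes (0.118%) passed for genotype averaged over populations, 1 higher (0.0148%) and 7 lower (0.103%), and they include the 6 because that contrast picked them. Lamb3 lay just inside the threshold, and Retnla, Kifc3 and Cenpn, just outside it, had edgeR adjusted p of 0.0554, 0.0776 and 0.0850. Rpl29, which encodes a ribosomal protein, and Spc25, of the kinetochore, were the other genes inside it.

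Counts were sorted into classes to see how far the 5 lower genes were detected in each batch. In batch 1, 16 of the 30 WT values (5 genes in 6 libraries) were over 3 counts, 6 were 1 to 3 and 8 were 0, while of the 30 SCAP cKO values 6 were over 3, 9 were 1 to 3 and 15 were 0. In batch 2 the WT values were 24, 2 and 4, and the SCAP cKO values 2, 0 and 28. All 8 SCAP cKO values over 3 counts belonged to Chpf, the 2 in batch 2 both in lung CCR6+CD69+ libraries. In either batch WT values over 3 counts outnumbered SCAP cKO ones, and SCAP cKO libraries of batch 2 were nearly empty for these genes. The genes were chosen over both batches, so this is a description only. Over all tested genes, the median share over 3 counts in batch 1 was 87.1% in WT and 85.0% in SCAP cKO libraries. In batch 2 it was 91.6% and 63.5%.

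**Figure D3:**
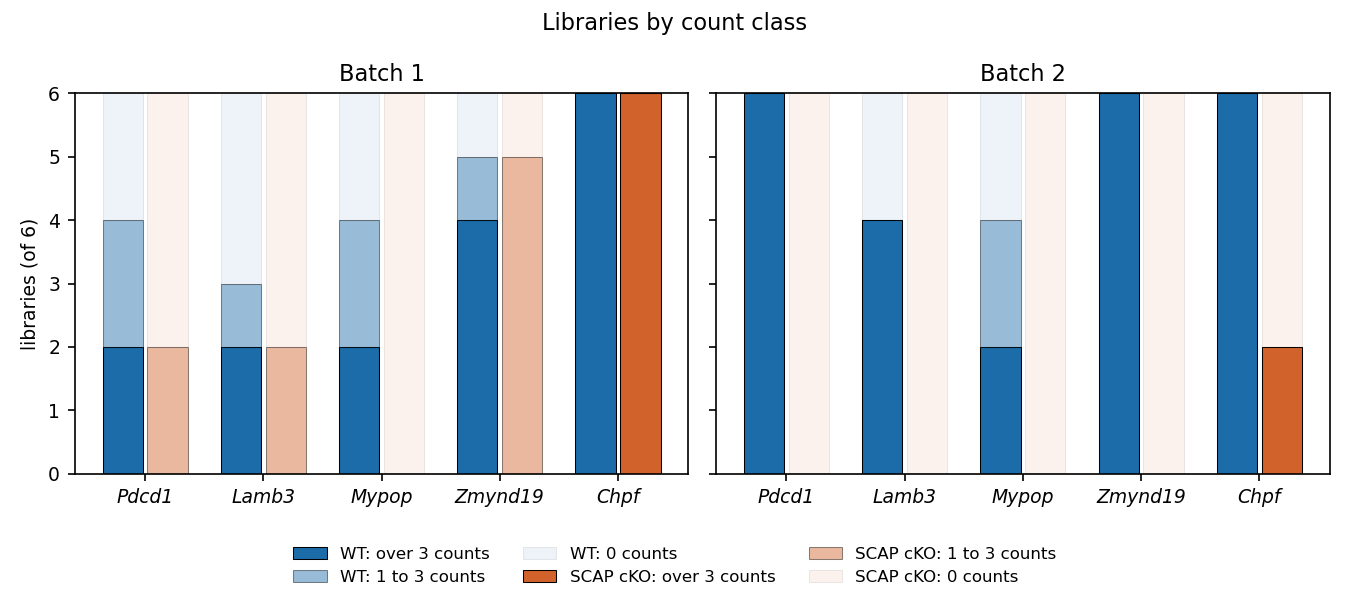
Number of libraries (of 6 per genotype and batch) with over 3, 1 to 3 or 0 counts for Pdcd1, Lamb3, Mypop, Zmynd19 and Chpf, batch 1 left and batch 2 right. In batch 2 the only SCAP cKO values above 0 are 2 for Chpf.

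Many other genes were also at 0 in the SCAP cKO libraries of batch 2. The share of the 6779 tested genes with 0 counts was 10.1 to 69.3% in the 6 SCAP cKO libraries of batch 2 (median 32.5%) against 3.85 to 21.5% in the WT libraries of batch 2 (median 6.05%). In batch 1 it was 2.54 to 5.44% in SCAP cKO and 1.37 to 36.6% in WT libraries. Within SCAP cKO of batch 2 the share varied with population. It was 19.0 and 10.1% in lung CCR6+CD69+, 33.3 and 69.3% in lung CCR6-CD69-, and 31.8 and 34.2% in circulating libraries. Chpf was counted in the first of these populations and was at 0 in the others. Whether this lower detection gave part of the differences in batch 2 was not tested. In batch 1, where SCAP cKO libraries had few genes at 0, Pdcd1 had 63 counts in WT, 41 of them in lung CCR6+CD69+ replicate 1, against 2 in SCAP cKO, and Lamb3 had 133, of which 76 and 56 in single libraries, against 2. The pooled WT to SCAP cKO ratio in batch 1 was 17.9 for Zmynd19 and 4.24 for Chpf (15.3 without SCAP cKO lung CCR6+CD69+ replicate 2). Mypop in batch 1 was at least 23.6-fold higher in WT (8.45-fold without WT lung CCR6+CD69+ replicate 1). In batch 2 the pooled ratio was 4.32 for Chpf (26.8 without SCAP cKO lung CCR6+CD69+ replicate 4). There WT was at least 51.0-fold higher for Pdcd1 (22.8-fold without WT circulating replicate 4), 20.8-fold for Lamb3, 79.6-fold for Zmynd19 and 33.5-fold for Mypop (15.7-fold without WT circulating replicate 3), each against 3 counts over the group.

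**Figure D4:**
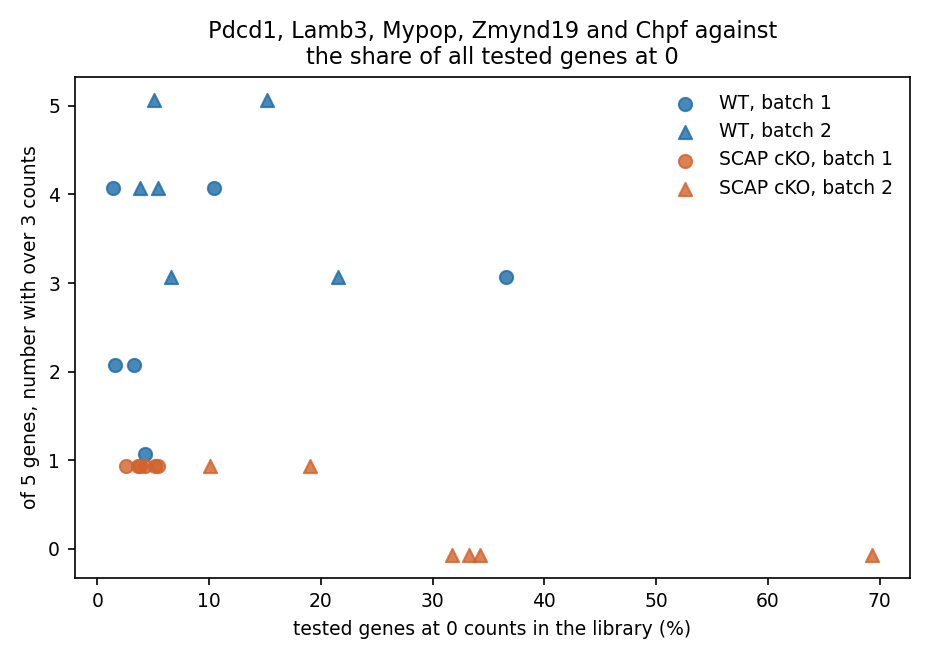
For each of 24 libraries, the percentage of the 6779 tested genes with 0 counts (x axis) and how many of Pdcd1, Lamb3, Mypop, Zmynd19 and Chpf had over 3 counts (y axis, whole numbers, with WT points drawn just above and SCAP cKO points just below the number). SCAP cKO libraries of batch 1, at 2.54 to 5.44% on the x axis, hold 1 such gene each, which is Chpf.

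Depth also limited what a 0 can show. Of the SCAP cKO libraries at 0, the value of 3 counts lay below the WT median of the same population in 4 of 4 for Chpf, 6 of 7 for Zmynd19, 5 of 10 for Pdcd1, 5 of 10 for Lamb3 and 5 of 12 for Mypop. In the rest, a level equal to that WT median was not detectable.

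The test of batch passed for none of the 6 genes in edgeR. Batch passed for 530 genes (7.82%; 56 or 0.826% higher and 474 or 6.99% lower in batch 2), and among the 6 the values closest to the threshold were Chpf at -1.70 ± 0.84 (adjusted p 0.244) and Rell1 at 0.63 ± 0.32 (adjusted p 0.259) on the log2 scale. The genotype difference varied with batch for 1 gene (0.0148%), Foxo4, with 559 at an unadjusted p under 0.05. Among the genes with counts to test it on, the log2 interaction was 0.07 ± 0.64 for Rell1 and -2.41 ± 1.78 for Chpf (adjusted p 0.988 and 0.768). Mypop could not be tested for it, and Pdcd1, Lamb3 and Zmynd19 were at 0 in all 6 SCAP cKO libraries of batch 2, so their interaction terms, the DESeq2 call of Lamb3 included (adjusted p 0.00587), are not read. In DESeq2, Chpf passed for batch (-1.54, adjusted p 0.0480).

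No gene of the pathway around Pdcd1 passed for genotype. Of 15 tested genes for PD-1 ligands, phosphatases and co-inhibitory receptors, 0 passed in either direction, 9 were above 0 and 6 below, and the median log2 difference was 0.11, against -0.06 over all tested genes. The PD-1 ligand Cd274 had 372 ± 172 CPM in WT and 271 ± 205 CPM in SCAP cKO libraries (SD, n = 12), and Pdcd1lg2, the other ligand, 124 ± 104 and 123 ± 154 CPM. The best-covered gene was Ptpn6, the phosphatase SHP-1 that acts downstream of inhibitory receptors, at 0.38 ± 0.24, followed by Cd72 at 0.11 ± 0.33, the inhibitory Fc receptor Fcgr2b at 0.48 ± 0.31 and the sialic acid receptor Siglecg at 0.09 ± 0.39 (log2 difference and SE).

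Of the RELT family and its kinases, 5 genes were tested and 0 passed for genotype. The median log2 difference was 0.56, with 3 above 0 and 2 below. Relt, which Rell1 binds, was at -0.29 ± 0.95, the kinase Oxsr1 at -0.22 ± 0.72, the scramblase Plscr1 at 0.56 ± 0.78 and the signalling adaptor Traf1 at 0.94 ± 0.40 (edgeR adjusted p 0.545).

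In chondroitin sulfate synthesis 12 genes were tested and 0 passed, 4 above 0 and 8 below, with a median of -0.17. Chpf2, the close relative of Chpf, was at 0.33 ± 0.63 and had 67.5 ± 46.4 CPM in WT and 76.5 ± 74.7 CPM in SCAP cKO libraries. The enzymes that start the chain gave -0.12 ± 0.51 for Xylt1, 0.25 ± 0.59 for B3gat3 and -0.27 ± 0.63 for Fam20b. Dse, which turns chondroitin into dermatan units, was at -3.84 ± 1.17 (edgeR adjusted p 0.223).

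Lama3, a laminin chain that Lamb3 is assembled with, had counts in 1 WT library and in no SCAP cKO library. Of 16 laminin, receptor and hemidesmosome genes with a row, 6 were tested and 0 passed (3 above 0, 3 below, median 0.06), among them Plec at 0.27 ± 0.33, Lamc1 at -0.15 ± 0.70, Dst at 0.91 ± 0.61 and the integrin Itga6 at -1.41 ± 0.74.

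The lists for Zmynd19 and Mypop held no gene that passed either. Of 16 tested MYND domain and CTLH ubiquitin ligase genes 5 were above 0 and 11 below (median -0.18), with Wdr26 at -0.50 ± 0.28 and Zmynd8 at -0.14 ± 0.37. Of 9 profilins and Myb-domain factors 3 were above 0 and 6 below (median -1.05), with Pfn1, the main profilin of blood cells, at 0.03 ± 0.27. Of 21 genes for SREBP control and targets 9 were above 0 and 12 below (median -0.13). In edgeR 3 of them had an unadjusted p under 0.05, as had 502 of all 6779 tested genes. These were Mvd, an enzyme of the mevalonate pathway, at -2.57 ± 1.01 (adjusted p 0.458), Acaca at -1.58 ± 0.69 (adjusted p 0.559) and Insig1 at -1.07 ± 0.48 (adjusted p 0.573).

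Because PD-1 is well known on T cells and Lamb3 in epithelium, markers of those cells were read in the same libraries; in bulk samples fewer cells of a type and less RNA per cell cannot be told apart. The 12 T cell markers with a row (of 20) summed to 357 to 1670 CPM in WT and 31.0 to 2932 CPM in SCAP cKO libraries. In circulating libraries they summed to 1287 to 1670 CPM in WT and 1080 to 2932 CPM in SCAP cKO, where Pdcd1 was at 0 in all 4. Over each genotype the highest gene of the T cell sums was Cd2 (418 ± 122 CPM in WT and 347 ± 170 in SCAP cKO, SD, n = 12). It was counted in all 12 libraries of either genotype, far above the defining markers, so the sums do not follow those markers alone. The defining markers differed in direction. Cd3e had 14.8 ± 28.2 CPM in WT and 8.01 ± 15.9 in SCAP cKO, with counts in 8 and 6 libraries. Cd3d had 14.9 ± 43.1 and 6.07 ± 11.6, with counts in 7 and 7. Trac had 3.71 ± 4.62 and 26.5 ± 67.7, with counts in 9 and 9. The 7 epithelial markers with a row (of 13) summed to 18.6 to 234 CPM in WT and 13.9 to 455 CPM in SCAP cKO libraries, and in circulating libraries to 63.2 to 172 against 200.5 to 455 CPM, while Lamb3 was counted mainly in WT. In circulating libraries the T cell sums of the genotypes thus overlapped, and the epithelial sums were all higher in SCAP cKO. The epithelial sums were carried by Cdh1 (72.0 ± 58.4 CPM in WT and 133 ± 135 in SCAP cKO, SD, n = 12), and members of the list differed: Krt18 had 1.52 ± 2.73 against 0.146 ± 0.198 CPM and Ager 1.39 ± 3.04 against 0.0199 ± 0.0690, higher in WT as Lamb3 was, and Krt8 0.181 ± 0.626 against 0.707 ± 2.23. Krt8, Krt18, Krt19 and Ager were at 0 in all 4 WT circulating libraries, among them the library with the highest Lamb3 value. Other sums differed as well. The 2 plasma cell markers with a row (of 8) had median sums of 1057 CPM in WT and 388 CPM in SCAP cKO libraries. Granulocyte sums went the other way (57.4 and 127 CPM). Macrophage and monocyte sums reached 36130 CPM in WT lung CCR6-CD69- replicate 2, which held its group's highest Pdcd1 and Mypop values. They reached 48001 CPM in SCAP cKO lung CCR6-CD69- replicate 1. The part of other cells in the differences of these genes was not tested.

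Sums of several marker lists varied with population, some in the order of the Rell1 medians. The 4 plasmacytoid dendritic cell markers with a row (of 10), Irf8, Tcf4, Ccr9 and Cox6a2, of which B cells also express Irf8 and Tcf4, had median sums of 1837 CPM in WT lung CCR6+CD69+, 2442 CPM in WT lung CCR6-CD69- and 4596 CPM in WT circulating libraries. In SCAP cKO libraries the same medians were 1730, 3852 and 5809 CPM, the order of the Rell1 medians under both labels, and above WT in the last 2 populations. The list's defining marker was not analysed here. The natural killer cell sums were 1274 to 2726 CPM in circulating libraries and at most 85.8 CPM in lung ones, with no such step between the lung populations. Median T cell sums, in which Cd2 was the highest gene over each genotype, had the order of the Rell1 medians too, at 482, 843 and 1598 CPM in WT. In SCAP cKO they were 503, 688 and 1208 CPM. Median B cell sums were lowest in circulating libraries, at 4540, 4966 and 2889 CPM in WT. In SCAP cKO these were 4486, 3695 and 2505 CPM. The part of any of these cells in the Rell1 differences was not tested.

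Genes whose levels followed each of the 6 most closely were found by Pearson's r over 24 libraries on log2 CPM, after the mean of each batch was removed; the libraries share group, depth and detection, so r is a description. Rell1 was most like the phosphatase gene Ptprf (r = 0.878), Tbc1d8 (0.877) and Tex2 (0.869). Chpf was most like Tacc3 (0.815), Higd1a (0.801) and Polr3f (0.798), and Zmynd19 like Xrcc4 (0.844), Spc25 (0.784) and Rrm2 (0.770). Pdcd1 was most like Ctnnd1 (0.756), Ptgfrn (0.742) and Paox (0.721), Lamb3 like Iglv2 (0.753), Spc25 (0.713) and Cerkl (0.659), and Mypop like Cenpn (0.790), Acp3 (0.701) and C87436 (0.698). Among the 6 genes themselves the highest r was 0.599, between Pdcd1 and Zmynd19, and Pdcd1 and Lamb3 stood at 0.09. Rell1 was at -0.07 to -0.33 with the other 5.

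The nearest gene with a row on either side of each of the 6 on the chromosome did not pass for genotype where tested. Genes without a row may lie between. Pdcd1, Chpf and Lamb3 lie on chromosome 1, Zmynd19 on 2, Rell1 on 5 and Mypop on 7, and Scap lies on chromosome 9. The tested neighbours were Fam174a beside Pdcd1 (log2 difference 0.83 ± 0.60), Pgm2 beside Rell1 (-0.71 ± 0.96), Tmem198 beside Chpf (-0.95 ± 1.12), G0s2 beside Lamb3 (1.38 ± 1.27), Arrdc1 and Dph7 on either side of Zmynd19 (0.47 ± 0.49 and 0.84 ± 0.98) and Irf2bp1 beside Mypop (-1.40 ± 0.87). The neighbours on the other side of Pdcd1, Rell1, Chpf, Lamb3 and Mypop had 0 counts in every library.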

How the data were processed

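The table the authors deposited holds raw counts by gene symbol (18470 rows, 24 libraries). Build mm39 and the tools Salmon, STAR and FastQC appear in the submitters' processing notes with no version or role; which tool made the counts, and whether strand was used, is not given in the sources used here. From the counts, CPM was computed per library total over the rows analysed. Tests were run in R 4.3.3 with edgeR 4.0.16: filterByExpr by group left 6779 genes, TMM set the scaling, and robust quasi-likelihood F-tests came from 1 model of all 24 libraries (group plus batch). Adjusted p-values (Benjamini-Hochberg, over the whole set of tested genes) were called under 0.05. The population test compares the 3 populations averaged over genotypes, and an added term gives genotype by batch. The SE of a fitted log2 difference is its size divided by the square root of its F statistic. Where a group held 0 counts only, this SE is not a sampling error. DESeq2 1.42.0, limma 3.58.1 (voom with sample quality weights), other filters and scaling, each batch alone and each library left out were alternatives. The genes and lists were chosen with earlier results of these data known. In lists with no gene past the threshold, up to 4 with the highest mean CPM are named, besides ligands, relatives and partners of the 6 genes and low p-values, chosen after their values were seen. Simulated counts were drawn from each gene's level pooled over all libraries and from the library sizes. They held no population or batch differences other than those added. On them the genotype fit called 49% of genes changed 4-fold and 90% of genes changed 16-fold. It also called 12 genes that were not changed, and the population test 8.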

Additional observations from a re-analysis of the deposited data

Results flagged for a closer look

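In 31 groups of 4 libraries (5 more held equal values only), the highest or lowest library of 11 stood apart from the others by more than Dixon's 95% critical value of 0.829. Chance flags about 1 in 20 groups, and in groups of low counts a single library with any count is flagged. Among WT libraries, Pdcd1 stood at 62.8 CPM in circulating replicate 4, with the others of its group at 0 to 2.03 CPM. Lamb3 stood at 11.9 CPM in lung CCR6+CD69+ replicate 4 and at 157 CPM in circulating replicate 2. Zmynd19 stood at 216 CPM in that same circulating replicate 2. Mypop stood at 20.6 CPM in lung CCR6-CD69- replicate 2 and at 37.7 CPM in circulating replicate 3. Among SCAP cKO libraries, each flagged value was the only one above 0 in its group: Pdcd1 at 0.239 CPM in lung CCR6+CD69+ replicate 2 and 0.215 CPM in lung CCR6-CD69- replicate 1, Lamb3 at 0.421 CPM in lung CCR6-CD69- replicate 2 and 0.548 CPM in circulating replicate 1, and Zmynd19 at 2.09 CPM in circulating replicate 2. Those SCAP cKO values are 1 or 2 counts each. No Rell1 or Chpf library stood apart in this way.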

How the results depend on the processing

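The genotype contrast called 8 genes; DESeq2 called 77 (18 higher, 59 lower), no filter 28, batch 1 alone 2, batch 2 alone 1, leaving out the libraries under 500000 counts 1, and limma voom or no batch term 0. Of the 11 alternatives 4 called all 6 genes and 6 none; leaving out 1 library gave 1 to 8 genes, with none of the 6 called in 15 of 24 cases. The voom values moved to -3.13 for Pdcd1, -2.01 for Lamb3, -4.04 for Zmynd19 and -2.65 for Mypop. Batch 2 alone gave -6.82 for Chpf and -8.53 for Zmynd19. In that batch Zmynd19 was at 0 in all SCAP cKO libraries, and Chpf in all but those of lung CCR6+CD69+. The counts alone therefore do not set the size of these batch 2 values. The population test called 346 genes; DESeq2 called 655, no filter 527, batch 2 alone 75, and, added after seeing the data, WT alone 79 and SCAP cKO alone 155, with 303 to 429 when 1 library was left out; Rell1 passed in all 14 alternatives and all 24 left-out fits. The interaction with population called 0 genes, DESeq2 5, no filter 7, and 0 to 0 with 1 library left out. Batch called 530 genes, DESeq2 1082, voom 1024, and 465 to 635 with 1 library left out. Genotype by batch called 1 gene, DESeq2 65, no filter 3, and 0 to 2 with 1 library left out. The causes were not tested.

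With the replicate number as a block the genotype contrast called 1 gene and the population test 253 (228 with the block within genotype). Same-numbered libraries showed little shared deviation. In 12 pairs of the same genotype r was -0.03 to 0.09 (median 0.03), and in 18 pairs across genotypes -0.20 to 0.03 (median -0.02). The numbers were therefore not taken to pair samples. This check cannot show whether populations were sorted from the same mice, in which case the 12 libraries of a genotype would not be independent. Low counts limit Pdcd1, Lamb3, Zmynd19 and Mypop most.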
